A study of Mus musculus with 2 samples.

Results

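Macrophages carrying UMIs (unique molecular identifiers, 1 per captured transcript) of Lyve1, Folr2, Cbr2 and F13a1 were examined in single-cell RNA profiles of mouse hearts. The cells were chosen by raw counts: at least 3 UMIs of the complement genes C1qa, C1qb and C1qc, at least 2 UMIs of Lyve1, Folr2, Cbr2 and F13a1 together, and no UMI of Spp1, Gpnmb, Cd79a, Cd3e, Pecam1 or Cdh5, with at most 3 of Dcn, Col1a1 and Col3a1. Depth was also limited: a cell needed 1000 UMIs or more, 500 genes or more and no more than 10% mitochondrially encoded UMIs. Of 10667 deposited cells, 7442 passed these depth limits and 643 of those met the whole rule, 317 in the wild-type library and 326 in the library of mice overexpressing adenylyl cyclase type 8 (AC8), the enzyme that makes cyclic AMP. Both libraries came from untreated C57/B6 mice, the wild-type animals being littermate controls, and each was prepared from pooled mice. By the series title the overexpression is specific to cardiomyocytes, and the study asks about RelA (an NF-kB subunit) in those cells and inflammation beyond them. Leukocytes (CD45+CD31-), mesenchymal cells (CD45-CD31-) and endothelial cells (CD45-CD31+) had been sorted from fresh hearts and mixed in equal numbers before 10x Genomics capture, so the share of a cell type in a library is set in part by the mixing. The labels state no age, sex or number of mice. With 1 library per genotype no difference has a replicate check, no test was made, and every interval below is an exact 95% interval that covers counting error only and treats UMIs as independent.

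Resident heart macrophages of this kind lie along vessels, are maintained largely by local division rather than by blood monocytes, and clear dead cells and debris through scavenger receptors. They are usually described as high in Lyve1, Folr2, Cd163, Mrc1 and, in a subset, Timd4, and low in MHC class II and in Ccr2, the receptor that draws monocytes from blood. Other C1q macrophages of the heart carry more MHC class II and are replaced from monocytes to a larger extent.

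The wild-type cells held 764702 UMIs and the AC8 cells 1096225. Median depth was 2094 UMIs and 1032 genes per cell in wild type (1003 to 7600 UMIs) and 3019 UMIs and 1358 genes in AC8 (1006 to 10227 UMIs), so the AC8 cells were the deeper ones. Over all kept cells the medians were 1930 and 2388 UMIs. Barcodes were deposited as running numbers, so barcodes shared between the libraries could not be counted. All 317 and all 326 count profiles were distinct, which does not stand in for that count. A doublet score built from simulated pairs of cells called 4.65% of kept wild-type cells and 3.89% of kept AC8 cells. These shares were set in advance from the number of deposited cells, so they do not estimate the doublet rate. Among the chosen cells 0 (wild type) and 1 (AC8) were called. The rule had already left out cells with genes of several other cell types, so these counts are no separate check for doublets. Levels below are CPM, the UMIs of a gene scaled to a total of 1000000 over the named cells of a library. Adcy8, the gene of the overexpressed enzyme, had 0 UMIs in the chosen cells of both libraries, where 3 UMIs would be 3.92 and 2.74 CPM. Cardiomyocytes were not sorted, and whether transgene reads would be counted under this symbol is not stated, so this does not check the labels.

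The 4 resident genes, which selected the cells, are described first. F13a1, the A subunit of coagulation factor XIII, was the broadest, with a UMI in 91.2% of wild-type and 94.8% of AC8 cells and levels of 2887 and 2662 CPM. Cbr2, a carbonyl reductase, was at 1395 and 1476 CPM in 265 and 284 cells. Folr2, folate receptor beta, was at 914 and 997 CPM in 208 and 250 cells. Lyve1, a hyaluronan receptor, was the least often seen, at 1053 and 940 CPM in 55.8% and 52.1% of cells. All 4 genes were found together in 133 wild-type cells (42.0%) and 147 AC8 cells (45.1%), while 37 and 26 cells carried 1 of them only. The sum of the 4 genes ran from 2 to 107 UMIs per cell (median 10) in wild type and from 2 to 136 (median 14) in AC8.

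Cd163 and Mrc1, markers of resident macrophages that the rule did not use, are described next. Cd163, the scavenger receptor for haemoglobin bound to haptoglobin, was at 649 (wild type) and 559 CPM (AC8), with a UMI in 53.3% and 52.8% of cells. In C1q cells that met every other limit but had 0 UMIs of the 4 genes (143 wild-type and 183 AC8 cells, here called 4-gene-negative C1q cells), Cd163 was at 106 and 13.3 CPM. B cells of the same libraries had no Cd163 UMI after thinning to 1000 UMIs per cell. Mrc1, the mannose receptor CD206, was at 1938 and 1271 CPM in 81.1% and 87.4% of the cells, against 420 and 163 CPM in the 4-gene-negative cells. Both markers were thus higher in the chosen cells in both libraries.

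The rule has a threshold at 2 UMIs of the 4 genes, and levels on either side of it are given as a description. Binned by 0, 1, 2, 3 to 5, 6 to 10 and over 10 UMIs of the 4 genes, wild-type C1q cells numbered 143, 60, 39, 64, 64 and 150, and AC8 cells 183, 54, 24, 50, 61 and 191. Mrc1 in those bins was at 420, 534, 500, 934, 1313 and 2652 CPM in wild type and at 163, 334, 353, 691, 851 and 1564 CPM in AC8. Just outside and just inside the threshold (1 and 2 UMIs) Cd163 was at 50.1 and 128 CPM in wild type and 72.0 and 176 CPM in AC8, and it reached 823 and 721 CPM in the top bin. H2-Aa, an MHC class II alpha chain, ran the other way, from 12905 CPM in the lowest bin to 2536 in the highest in wild type and from 10649 to 2135 in AC8. Il1b, the inflammatory cytokine interleukin-1 beta, went from 2484 to 392 CPM in wild type and from 1669 to 153 in AC8. Ccl8, a chemokine, was at 3.79 CPM in the lowest bin of both libraries and at 128 (wild type) and 908 CPM (AC8) in the highest. In the bin of 2 UMIs, just inside the threshold, Mrc1 and H2-Aa were closer in CPM to the cells with 0 UMIs than to those with over 10 in both libraries. A deeper cell passes the threshold more easily.

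**Figure D1:**
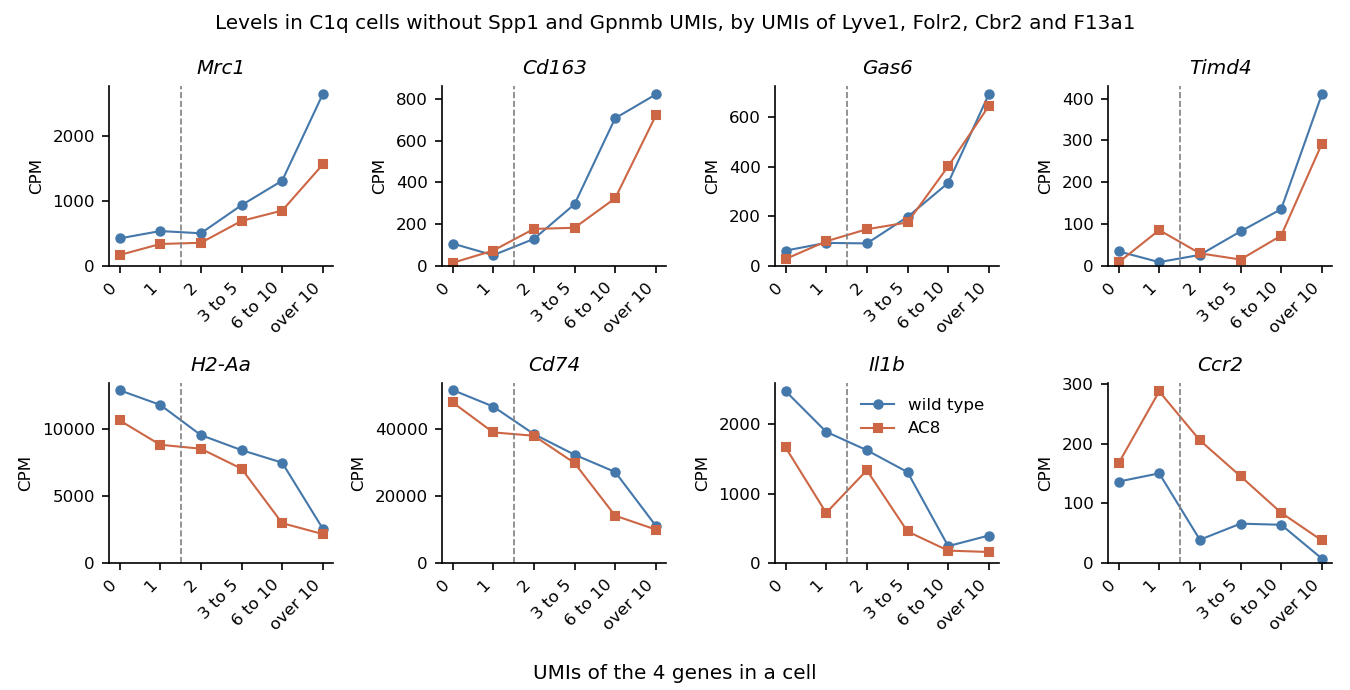
Levels of single genes (vertical axes, CPM of the bin's UMIs) in C1q cells grouped by their UMIs of Lyve1, Folr2, Cbr2 and F13a1 together (horizontal axes), with 1 line per library and a dashed line at the threshold of the rule. Mrc1 reaches 2652 (wild type) and 1564 CPM (AC8) in the bin over 10 UMIs, and H2-Aa is lowest there, at 2536 and 2135 CPM.

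The chosen cells were 59.5% (55.2 to 63.7) of the 533 wild-type C1q cells that passed the limits on genes of other cell types, and 48.4% (44.6 to 52.3) of the 673 AC8 ones. The difference was -11.0 percentage points (-16.7 to -5.26). The limit on Spp1 (osteopontin) and Gpnmb, both genes of lipid-associated macrophages, bears on this value, since 5 wild-type and 70 AC8 C1q cells had at least 2 UMIs of them. Among cells with enough C1q and 4-gene UMIs, 3 wild-type and 36 AC8 cells were left out by that limit alone, against 24 and 28 by the limit on Cd79a and Cd3e, 7 and 10 by the fibroblast genes and 28 and 34 by Pecam1 and Cdh5. Counting cells with at least 2 UMIs of the 4 genes whatever their Spp1 and Gpnmb gave 60.0% of 533 and 53.8% of 673, a difference of -6.25 points. With every C1q cell holding an Spp1 or Gpnmb UMI removed from the denominator too, the shares were 61.0% and 57.9%, a difference of -3.06 points (-9.01 to 2.93). With each cell thinned to 1000 UMIs the shares were 49.7% and 42.1%, a difference of -7.60 points (-13.2 to -1.95). In cells of at least 2000 UMIs and 1000 genes the difference was -21.2 points, and with at least 4 UMIs of the 4 genes it was -4.59. The AC8 share was lower under each of these settings, by amounts that varied, and the interval included 0 without the Spp1 and Gpnmb cells.

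Set beside the 4-gene-negative C1q cells of the same library, 716 of 7379 measured genes (9.7%) were at least 1.5-fold higher in the chosen cells in both libraries and 181 (2.45%) at least 1.5-fold lower. The genes of the rule were left out of these counts, and ratios carry a pseudocount of 10 CPM. The median gene was 0.18 (wild type) and 0.15 (AC8) higher on the log2 scale, and with that shift removed the counts were 408 and 318. Since the 4 genes defined both groups, these values describe the cells and are no support for the choice. Resident macrophage identity genes were higher as a list, with 21 of 27 measured members at least 1.5-fold higher in both libraries and 0 lower, at medians of 1.46 and 2.08. Among the 6 that did not reach 1.5-fold in both were Hpgd, Mgl2, Clec4n, Adgre1 (F4/80) and Csf1r (the M-CSF receptor).

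The 8 genes with the highest ratios were Ccl7, Ednrb, Fcna, Ltc4s, Colec12, Gas6, Chp2 and Timd4. Ednrb, endothelin receptor B, was at 296 CPM in wild type and 179 in AC8, against 15.1 CPM and no UMI in the 4-gene-negative cells. Fcna, the lectin ficolin A that starts the complement cascade, was at 144 and 157 CPM against no UMI and 3.79 CPM. Ltc4s, which makes leukotriene C4, was at 246 and 272 CPM against 15.1 and 20.9. Gas6, the ligand that bridges dying cells to the receptors Axl and Mertk, was at 493 and 518 CPM against 60.6 and 26.6. Colec12, a scavenger collectin, was at 166 and 181 CPM against 11.4 in both. Chp2, a calcineurin-like calcium-binding protein, was at 131 and 138 CPM against 11.4 and 1.90. Timd4, a receptor for phosphatidylserine on dying cells, was at 273 and 207 CPM against 34.1 and 7.59. Ccl7, a monocyte chemokine, was at 858 and 1211 CPM against 26.5 and 94.8. These 8 were ranked by the less extreme of the 2 libraries' ratios, so being higher in both libraries was set by the choice.

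The gene lists gave the following counts. Of 23 efferocytosis and scavenging genes 9 were higher and 1 lower, the latter being Axl at 95.5 and 49.3 CPM against 204 and 163. Of 18 iron and heme genes 6 were higher and 0 lower, among them the iron exporter Slc40a1 (81.1 and 77.5 CPM against 15.1 and 7.59) and the heme-degrading enzyme Hmox1 (1395 and 1157 against 489 and 307). Of 15 growth factors 7 were higher, with Igf1 at 361 and 450 CPM against 132 and 150, and 2 were lower. Of 11 complement genes 6 were higher, with the anaphylatoxin receptor C3ar1 at 449 and 499 CPM against 257 and 326, and 1 lower, the integrin Itgax (CD11c) at 7.85 and 10.9 against 49.2 and 102. Of 29 chemokines and cytokines 8 were higher and 5 lower, with Pf4 at 2423 and 2520 CPM against 579 and 487. The share of higher genes was above the 9.7% background in each of these lists, and the share of lower genes was above the 2.45% background in each but the iron and heme list. The chemokine and cytokine list had a median of 0.37 in wild type and -0.43 in AC8, so its direction was not the same in the libraries. The lists share members with the identity list.

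MHC class II genes were lower as a group. All 8 measured members were at least 1.5-fold below the 4-gene-negative cells in both libraries, at medians of -1.35 (wild type) and -1.70 (AC8) against 0.18 and 0.15 over all genes. Cd74, the invariant chain, was at 19852 CPM in wild type and 14753 in AC8, against 51623 and 47933. H2-Ab1, the beta chain partner of H2-Aa, was at 3469 and 2353 CPM against 9061 and 7914, and H2-Eb1 at 4394 and 2958 against 12102 and 11020.4. Other genes at the low end were Il1b (639 and 267 CPM against 2484 and 1669), the C-type lectin Cd207 (52.3 and 73.9 against 204 and 355), Rgs1, a brake on chemokine receptor signalling (483 and 443 against 1352 and 1750.4), Glipr1 (41.8 and 34.7 against 216 and 212), the adhesion receptor Slamf7 (49.7 and 41.0 against 151 and 146), Plbd1 (116 and 109 against 382 and 309) and Bcl2a1d, a survival gene with near-identical copies (44.5 and 25.5 against 140 and 125).

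**Figure D2:**
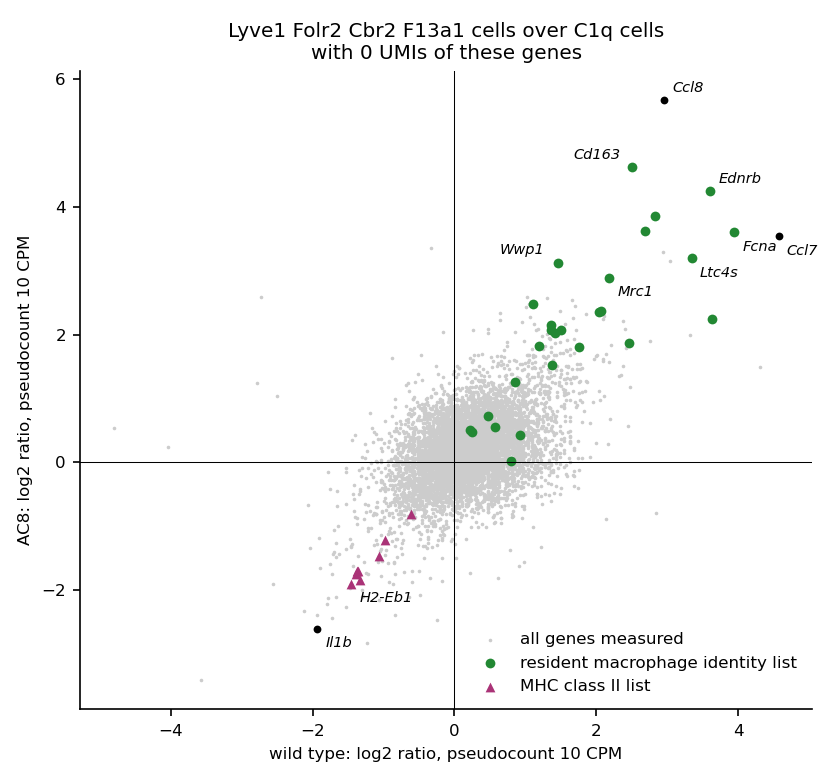
Log2 ratio of the chosen cells over 4-gene-negative C1q cells in wild type (horizontal axis) and in AC8 (vertical axis), 1 point per measured gene. Of 27 resident identity genes 21 are at least 1.5-fold higher on both axes, and all 8 MHC class II genes lie at the lower left.

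AC8 cells were then set beside wild-type cells, the comparison of the genotypes. Of 6485 genes with at least 30 UMIs, 326 (5.03%) were at least 1.5-fold higher in AC8 and 383 (5.91%) at least 1.5-fold lower, and the median log2 ratio was -0.00. The identity list had a median of 0.12, with 3 of 27 members higher and 2 lower. Selenop, which carries selenium, was at 5560 CPM in wild type and 6729 in AC8, Pf4 at 2423 and 2520, and Csf1r at 1343 and 1326. The identity genes past 1.5-fold were Cd209f (18.3 and 40.1 CPM), Ninj1, a membrane-rupture protein (295 and 520), Clec4n, the lectin Dectin-2 (92.8 and 164), all higher in AC8, and Mrc1 (0.656-fold, 0.609 to 0.706) and Ednrb (0.605-fold), both lower in AC8. In the 4-gene-negative cells Mrc1 was lower in AC8 too, at 420 CPM in wild type and 163 in AC8. Ednrb was too rare there to compare the genotypes. Within the chosen cells Mrc1 was at 1356, 2244 and 2023 CPM in wild-type cells of rising depth (under 2000, 2000 to under 4000, and 4000 or more UMIs) and at 1571, 1162 and 1340 in AC8, so it was not lower in AC8 among the shallow cells.

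Chemokines of 1 gene cluster on chromosome 11 stood out among the higher genes. Ccl2, Ccl7, Ccl12 and Ccl8 lie in that order on the plus strand (GRCm38), at chr11:82035571-82037453, chr11:82045712-82047525, chr11:82101845-82103400 and chr11:82115185-82116799, and encode ligands of chemokine receptors on monocytes and other leukocytes. Ccl8 was at 96.8 CPM in wild type (74 UMIs) and 688 CPM in AC8 (754 UMIs), a ratio of 7.11 (5.59 to 9.15). A Ccl8 UMI was found in 26 wild-type cells (8.20%) and 99 AC8 cells (30.4%), and in 6.31% and 19.9% after thinning to 1000 UMIs, against 0.926% and 0.400% of thinned B cells. A single AC8 cell held 163 of the UMIs (21.6%), and the 10 highest cells held 74.3% of Ccl8 UMIs in wild type and 54.9% in AC8. Ccl12 was at 527 and 1507 CPM, a ratio of 2.86 (2.56 to 3.20), in 86 and 141 cells. Ccl7 was at 858 and 1211 CPM, a ratio of 1.41 (1.29 to 1.55), in 120 and 145 cells, and Ccl2 at 1786 and 2421 CPM, a ratio of 1.36 (1.27 to 1.45), in 198 and 243 cells. The last 2 were thus under 1.5-fold, while Ccl8 and Ccl12 were past it.

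The 4 chemokines also occurred in more cells together. All 4 were found in 11 wild-type cells (3.47%) and 41 AC8 cells (12.6%), Ccl8 with Ccl12 in 13 and 60 cells, and none of the 4 in 94 and 50 cells. In the 4-gene-negative cells Ccl12 was at 254 and 243 CPM, so its AC8 difference was not seen in that group. Ccl8 was at 3.79 CPM there in both libraries, on too few UMIs to compare the genotypes. In C1q cells with 1 UMI of the 4 genes it had no UMI in wild type and was at 39.3 CPM in AC8. Depth moved with the chemokine differences. The UMI total was under 2000 in 147 wild-type and 52 AC8 cells, from 2000 to under 4000 in 145 and 184, and 4000 or more in 25 and 90. From the shallow to the deep stratum Ccl8 was at 86.4, 79.0 and 172 CPM in wild type and at 184, 338 and 1157 in AC8, and Ccl12 at 380, 649 and 406 against 786, 1309 and 1847. Both were higher in AC8 in each of these 3 strata. Ccl7 was at 522, 1049 and 859 CPM in wild type and 454, 1074 and 1491 in AC8, so its AC8 excess lay in the cells of 4000 or more UMIs.

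Several other genes were higher in AC8. Atp1b1, the beta subunit of the sodium pump, went from 3 UMIs in 3 wild-type cells (3.92 CPM) to 122 UMIs in 34 AC8 cells (111 CPM), a ratio of 28.4 with a counting interval of 9.48 to 139. In the 3 depth strata it was at 4.32, 2.47 and 7.81 CPM in wild type and 0, 60.2 and 186 in AC8, and in the 4-gene-negative cells at 7.57 and 1.90 CPM. Npl, a lyase of sialic acid, was at 57.5 and 151 CPM (2.63-fold, 1.88 to 3.76) in 39 and 115 cells, and at 22.7 and 19.0 CPM in the 4-gene-negative cells. In the depth strata Npl was at 34.5, 54.3 and 109 CPM in wild type and 61.4, 150 and 168 in AC8. The shallow values rest on 8 and 5 UMIs, too few to give a direction there. C4b, complement component C4, was at 95.5 and 199 CPM (2.08-fold, 1.59 to 2.75) in 41 and 95 cells, against 3.79 and 11.4. Capg, which caps actin filaments, was at 200 and 376 CPM, and Ly6e, an interferon-induced surface protein, at 888 and 1570. Prdx1, a peroxiredoxin, was at 451 and 826 CPM, Ms4a7 at 273 and 542, Zfp622 at 57.5 and 110, Nmt1, an N-myristoyltransferase, at 61.5 and 167, and Ccnb1ip1 at 17.0 and 119. Nmt1 and Ccnb1ip1 differed between the libraries in the 4-gene-negative cells too, at 87.1 and 199 and at 41.7 and 161 CPM.

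The lower end held an inflammatory cytokine, a caspase, a collagenase and an Hsp70. Il1b was at 639 CPM in wild type and 267 in AC8 (0.418-fold, 0.360 to 0.484), in 73 and 51 cells, and it was lower in AC8 in each depth stratum (643, 578 and 828 against 221, 273 and 269 CPM). Casp4, an inflammatory caspase that senses bacterial lipopolysaccharide, was at 248 and 108 CPM (0.433-fold, 0.341 to 0.548). In the depth strata it was at 186, 272 and 289 CPM in wild type and 233, 102 and 93.2 in AC8. It was thus lower in AC8 in the 2 deeper strata but not in the shallow cells, where the values rest on 43 and 19 UMIs. Mmp13, a collagenase, was at 109 and 33.8 CPM (0.311-fold, 0.205 to 0.463) in 20 and 23 cells, with 30.1% of its wild-type UMIs in 1 cell. In the depth strata it was at 108, 143 and 0 CPM in wild type and 0, 52.7 and 18.6 in AC8. The values in the cells of 4000 or more UMIs rest on 0 and 9 Mmp13 UMIs, too few to give a direction there. Hspa1b, an inducible Hsp70, was at 1671 and 846 CPM and lower in AC8 in each stratum (2211, 1614 and 875 against 1080, 1034 and 598). The other 8 of the 12 lowest were Nup98 (107 and 36.5 CPM) and Ranbp2 (162 and 76.6), both of the nuclear pore, Got1, an aspartate aminotransferase (133 and 54.7), Atrx, a chromatin remodeller (207 and 97.6), Jdp2, a partner of Jun (394 and 192), Arih1, a ubiquitin ligase (120 and 51.1), Dennd4a (250 and 102) and Fam129a (157 and 67.5).

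**Figure D3:**
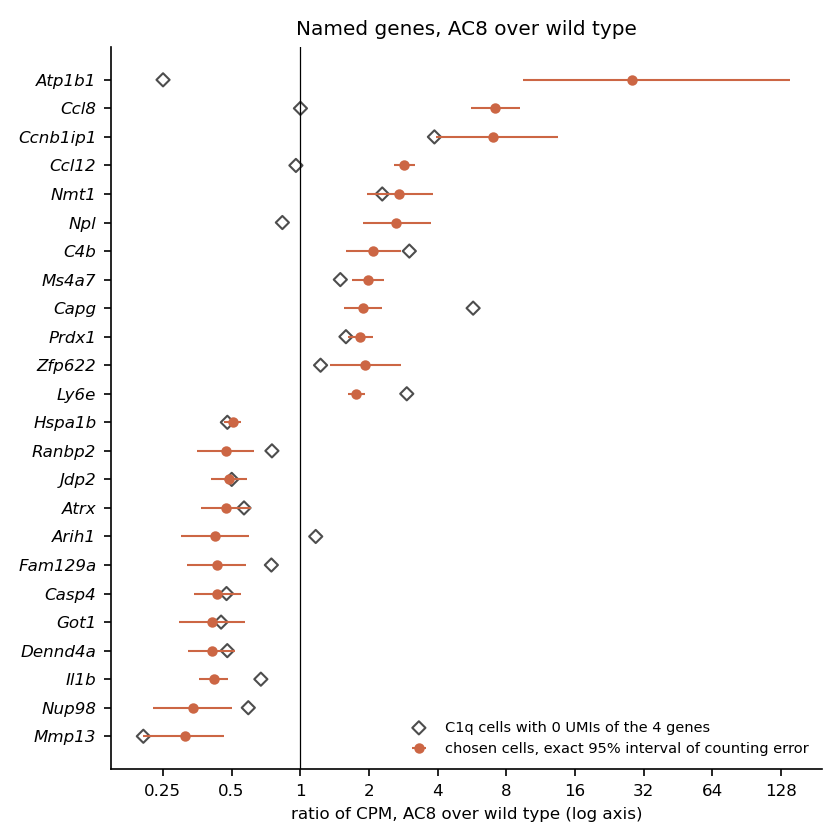
AC8 over wild-type ratio in the chosen cells (log axis) with exact 95% counting intervals for the 12 highest and 12 lowest genes (filled points), with the ratio in the 4-gene-negative C1q cells as open diamonds without intervals. Atp1b1 at 28.4 has the widest interval, with 3 wild-type UMIs. The diamonds of Ccl8, Ccl12 and Npl lie at or below 1, that of Ccl8 on too few UMIs to compare the genotypes.

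The 2 libraries differed in depth, and MHC class II moved with it. H2-Aa was at 5003 CPM in wild type and 3270 in AC8 (0.654-fold), with a UMI in 72.6% and 56.4% of cells, and in 66.6% and 48.2% after thinning, against 2.60% and 2.32% of thinned fibroblasts. H2-Ab1 was at 3469 and 2353 CPM, H2-Eb1 at 4394 and 2958, and Cd74 at 19852 and 14753 (0.743-fold). Ciita, the master activator of the class II genes, was at 36.6 and 13.7 CPM (0.374-fold, 0.186 to 0.724), in 27 and 13 cells. In the depth strata Ciita was at 43.2, 39.5 and 15.6 CPM in wild type and 0, 18.8 and 10.4 in AC8, lower in AC8 in each, on 2 and 5 UMIs in the deepest. The list's median was -0.49, with 2 of 8 members (H2-Aa and Ciita) past 1.5-fold lower and 0 higher. Within the same strata H2-Aa was at 7483, 4355 and 2570 CPM in wild type and at 4358, 4041 and 2238 in AC8, and Cd74 at 28221, 18332 and 9522 against 18818, 18644 and 9783. H2-Aa and Cd74 were thus further apart between the genotypes in the shallow cells than in the others, and shallow cells made up 46.4% in wild type and 16.0% in AC8. With only cells of at least 2000 UMIs and 1000 genes the list's median was -0.057. The part of depth in the class II difference was not tested beyond these values.

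**Figure D4:**
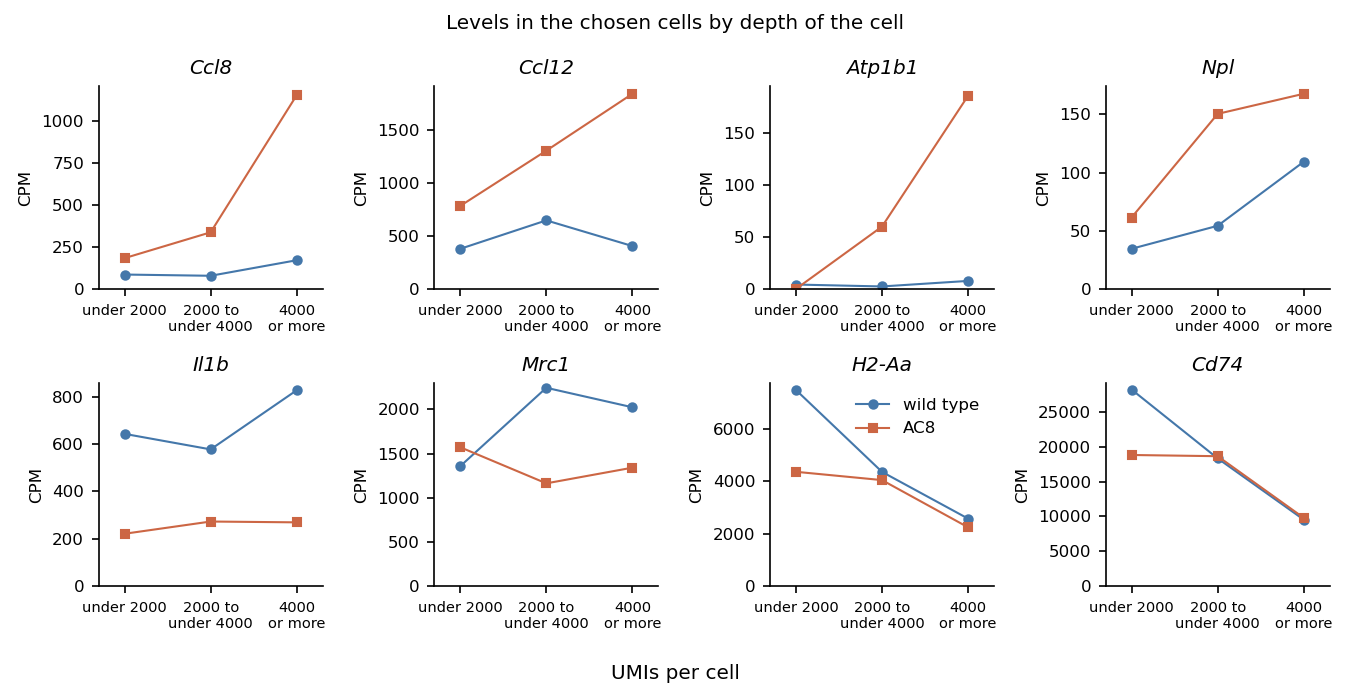
Levels of single genes (CPM) in chosen cells with under 2000, 2000 to under 4000 and 4000 or more UMIs (horizontal axes), with 1 line per library. H2-Aa and Cd74 are close in the 2 deeper strata, whereas Ccl8, Ccl12 and Il1b keep their direction in all 3 and Mrc1 is lower in AC8 in the 2 deeper ones. Npl is higher in AC8 in the 2 deeper strata, and its shallow values rest on 8 and 5 UMIs, too few to give a direction.

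Type I interferon response genes had the most members higher in AC8 by count, though not by share of the list. Of 36 measured members 10 were at least 1.5-fold higher and 1 lower, at a median of 0.26, against 5.03% and 5.91% of all genes and a median of -0.00. The median was 0.079 with cells thinned to 1000 UMIs, 0.13 over genes with at least 100 UMIs and 0.15 in cells of at least 2000 UMIs and 1000 genes. Many of these genes carry the interferon-stimulated response element in their promoters, which has the core GAAANNGAAA. Promoter sequences are shown for Isg15, which has the most matches to that core among the higher genes with a promoter in the table, and for Ifit3, which has the highest log2 ratio of the list. The sequences are from RefSeq (GRCm38.p6), run from 250 bases before to 50 after the gene's start on the gene's strand, and carry matches to GAAANNGAAA on either strand in capitals. Isg15 is on the minus strand at chr4:156200769-156201068 and Ifit3 on the plus strand at chr19:34583279-34583578.
Isg15: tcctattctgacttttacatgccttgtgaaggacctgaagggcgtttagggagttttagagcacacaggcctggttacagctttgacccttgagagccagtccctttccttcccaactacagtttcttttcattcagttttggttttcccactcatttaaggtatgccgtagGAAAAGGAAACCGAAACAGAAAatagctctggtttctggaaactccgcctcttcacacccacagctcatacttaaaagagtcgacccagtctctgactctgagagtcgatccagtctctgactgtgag
Ifit3: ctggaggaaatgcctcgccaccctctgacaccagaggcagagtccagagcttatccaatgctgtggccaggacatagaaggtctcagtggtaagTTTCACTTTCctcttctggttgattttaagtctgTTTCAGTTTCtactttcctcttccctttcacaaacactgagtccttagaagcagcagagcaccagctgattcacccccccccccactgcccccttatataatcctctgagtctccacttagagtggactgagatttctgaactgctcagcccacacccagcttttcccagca
The Isg15 window holds 3 overlapping matches, the first beginning 78 bases before the start, and the Ifit3 window holds 2, the first beginning 156 bases before the start. The core was present in 1131 of 32851 promoters of the table (3.44%), in 21 of 39 promoters of the interferon list (53.8%) and in 4 of the 6 listed genes that were higher in AC8 and have a promoter there, namely Isg15, Ifit3, Ifit1 and Rsad2, but not Irf7 or Xaf1. A match is a description of the sequence and not a measured site.

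Isg15, a ubiquitin-like modifier, was at 47.1 CPM in wild type and 110 in AC8 (2.34-fold, 1.60 to 3.50), in 29 and 50 cells. Ifit3, an antiviral RNA-binding partner with a near-identical copy in the genome, was at 17.0 and 76.6 CPM (4.51-fold, 2.50 to 8.81), in 9 and 30 cells. Irf7, which amplifies interferon transcription, was at 37.9 and 99.4 CPM (2.62-fold, 1.73 to 4.10), in 26 and 67 cells. Ifi27l2a, the most abundant of the higher members, was at 1452 and 2512 CPM. Zbp1, a sensor of Z-form nucleic acids, was at 15.7 and 46.5 CPM, Rtp4 at 64.1 and 109, Xaf1 at 35.3 and 66.6, Ifit1 at 5.23 and 31.0, Dhx58 (LGP2) at 9.15 and 24.6 and Rsad2 (viperin) at 11.8 and 23.7. Gbp7 was the lower member, at 115 and 71.2 CPM. Depth moved with part of this: Isg15 was at 64.8, 44.4 and 23.4 CPM in the 3 strata of wild type and 36.8, 71.5 and 166 in AC8. It was thus lower in AC8 among the shallow cells, on 15 and 3 UMIs. Irf7 (17.3, 46.9 and 46.9 against 98.2, 97.8 and 101) and Ifit3 (8.64, 12.3 and 46.9 against 36.8, 39.5 and 124) were higher in AC8 in each. Their shallow values rest on 4 and 8 UMIs of Irf7 and 2 and 3 of Ifit3, so the direction there is uncertain. In the 4-gene-negative cells the same genes were higher in AC8 as well, Isg15 at 37.9 and 190 CPM, Irf7 at 49.2 and 209 and Ifit3 at 11.4 and 125, and the list's median there was 0.39. MHC class I genes, many of them also induced by interferon, had 4 of 19 members higher and 0 lower at a median of 0.19, with the immunoproteasome subunit Psmb8 at 196 and 306 CPM, H2-K1 at 931 and 1161 and B2m at 1446 and 1335.

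NF-kB targets did not stand higher as a list. Of 39 measured members 1 was at least 1.5-fold higher in AC8 and 5 lower, at a median of -0.13 (0.08 in the 4-gene-negative cells). The lower ones were Il1b, Il1a (36.6 and 11.9 CPM), the chemokine Ccl3 (433 and 231), the inhibitor of the pathway Tnfaip3 (634 and 362, 0.571-fold, 0.499 to 0.653) and the subunit Rel (250 and 153). Ptgs2, cyclooxygenase-2, was the higher one at 5.23 and 29.2 CPM in 4 and 9 cells. Rela itself was at 94.2 and 89.4 CPM, the inhibitor Nfkbia at 1867 and 1766, Cxcl2 at 4459 and 4437 and Tnf at 153 and 159. The 28 chemokines and cytokines had a median of 0.04, with 5 higher (Ccl8, Ccl12, Il1rn, Ppbp and Cxcl3) and 3 lower (Il1b, Il1a and Ccl3), so single members and not the list differed.

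Of 18 measured heat shock and chaperone genes 4 were at least 1.5-fold lower in AC8 and none was 1.5-fold higher, against 5.91% and 5.03% of all genes. The list's median was -0.45, and 17 of the 18 had a log2 ratio below 0, as had 3247 of all 6485 genes. Hsph1, an Hsp110 chaperone, was at 144 CPM in wild type and 53.8 in AC8, Hspb1 at 319 and 132, Hspa5 (BiP, of the endoplasmic reticulum) at 1516 and 949, and Hspa1a, nearly identical to Hspa1b, at 2512 and 1734. The 4-gene-negative cells showed a median of -0.66 for this list, so the direction was shared by both macrophage groups. Immediate-early genes had a median of -0.10 with 2 of 21 lower, and Fos was at 8178 and 7532 CPM and Jun at 6002 and 6533. Of 12 cyclic AMP response genes 1 was higher (the growth factor Areg, 18.3 and 51.1 CPM in 10 and 15 cells) and 2 lower, the repressor Crem (58.8 and 26.4) and the nuclear receptor Nr4a2 (31.4 and 15.5), at a median of -0.21. Mitochondrially encoded genes had a median of -0.49 with 4 of 13 lower, and the median was -0.27 with cells thinned to 1000 UMIs. Ribosomal protein genes had a median of -0.15 with 12 of 87 lower.

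Uptake and storage genes gave mixed values. Of 23 efferocytosis and scavenging genes 1 was higher in AC8, Anxa1 (166 and 346 CPM), and 5 lower: Axl (95.5 and 49.3), the lipid scavenger Cd36 (501 and 303), the integrin Itgav (44.5 and 24.6), the engulfment adaptor Elmo1 (111 and 67.5) and Mrc1. Mertk was at 74.5 and 77.5 CPM, and the list's median was -0.16. None of 17 iron and heme genes was past 1.5-fold in either direction, with Hmox1 at 1395 and 1157 CPM and the ferritin heavy chain Fth1 at 7527 and 9581. Of 32 lysosomal genes 1 was higher, the protease Ctsd (330 and 535), and 0 lower, at a median of 0.17. Lipid-associated macrophage genes had 5 of 17 higher and 0 lower at a median of 0.36, and 0.40 in the 4-gene-negative cells. They were Lgals3, galectin-3 (212 and 479 CPM, in 84 and 151 cells), the interleukin-1 antagonist Il1rn (30.1 and 92.1), Cd9 (88.9 and 146), Ctsd and Mmp12 (1.31 and 40.1, in 1 and 7 cells), while Apoe was at 12043 and 14119. The rule left out every cell with an Spp1 or Gpnmb UMI, so these are cells in which those 2 lipid-associated genes were not detected.

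The remaining lists were short, and their counts stand against 5.03% of all genes higher and 5.91% lower. Complement genes had 2 of 9 higher, C4b and factor B (Cfb, 6.54 and 33.7 CPM, in 5 and 31 cells), and 0 lower. Antioxidant genes had 1 of 12 higher (Prdx1) and 2 lower, Txnrd1 (153 and 82.1) and Gclc (91.5 and 53.8). Growth factors had 1 of 14 higher, Areg, with Igf1 at 361 and 450 CPM. Of 10 recruited-monocyte genes 2 were higher, Ccr2 and Fn1 (22.2 and 62.9), and 1 lower, S100a8, which was seen in 8 and 2 cells. Of 11 cell cycle genes none was higher and 1 lower, the proliferation marker Mki67 (65.4 and 35.6 CPM, in 13 and 9 cells). None of 6 Fc receptor genes passed 1.5-fold.

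**Figure D5:**
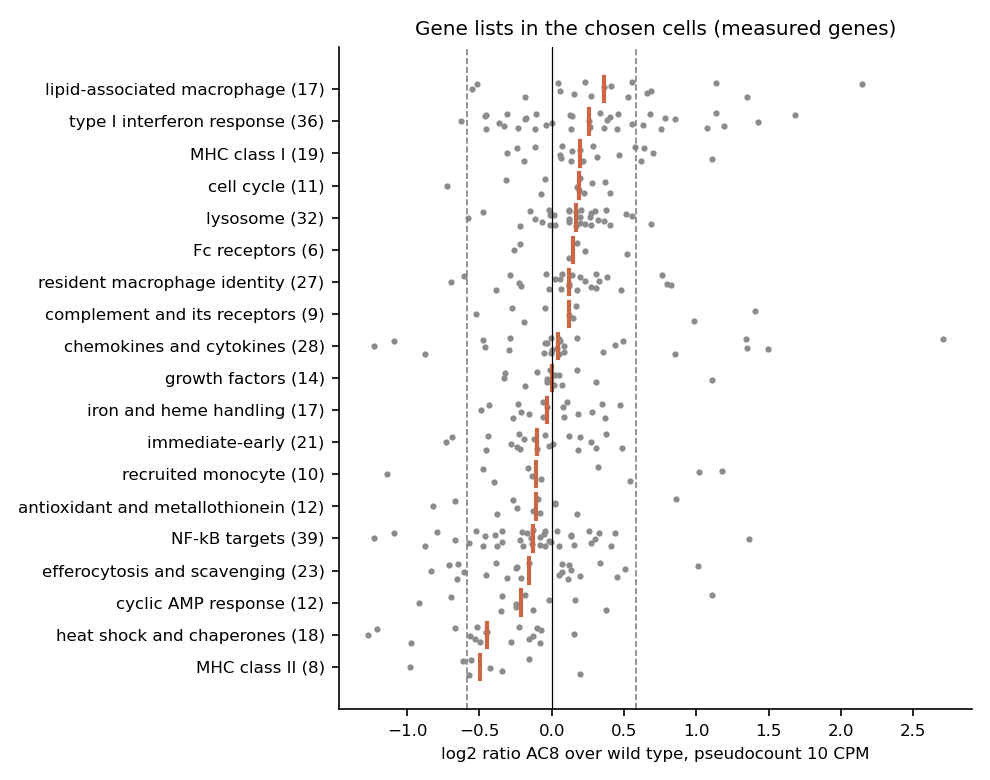
Log2 ratio of AC8 over wild type in the chosen cells (horizontal axis) for each gene list, with 1 point per measured gene, a bar at the median, dashed lines at 1.5-fold and the number of measured genes in brackets. The median of the type I interferon list lies at 0.26, of MHC class II at -0.49 and of heat shock at -0.45.

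Timd4 and Ccr2 divide heart macrophages in many descriptions, so the cells were described by a UMI of either. A Timd4 UMI was found in 107 wild-type (33.8%) and 113 AC8 cells (34.7%), in 19.2% and 14.7% after thinning, and in no thinned B cell. Cells with a Timd4 UMI were deeper (medians of 2646 and 3634 UMIs against 1919 and 2732). Lyve1 was at 1749 CPM in wild-type cells with a Timd4 UMI and 606 in those without, and at 1537 and 537 in AC8. Ednrb was at 525 and 148 CPM in wild type and 332 and 74.9 in AC8, and Fcna at 264 and 66.6 and at 274 and 78.0. H2-Aa was lower with Timd4, at 3367 and 6055 CPM in wild type and 1790 and 4272 in AC8. Ccl8 was at 134 CPM with and 73.0 without Timd4 in wild type and at 766 and 635 in AC8, so its AC8 excess was present in both kinds of cell. Atp1b1 in AC8 was at 233 CPM with Timd4 and 29.1 without, and in wild type at 3.34 and 4.30.

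Ccr2 UMIs were found in 14 wild-type cells (4.42%) and 37 AC8 cells (11.3%), and in 2.52% and 5.83% after thinning, against 0 and 0.400% of thinned B cells. The level was 28.8 CPM in wild type and 68.4 in AC8, a ratio of 2.38 (1.46 to 4.02). In the depth strata it was at 47.5, 19.7 and 23.4 CPM in wild type (11, 8 and 3 UMIs) and 24.6, 77.1 and 66.3 in AC8 (2, 41 and 32 UMIs). It was thus higher in AC8 in the 2 deeper strata, while the shallow AC8 value, on 2 UMIs, gives no direction. Cells with a Ccr2 UMI had more H2-Aa, at 11952 CPM against 4667 without in wild type and 9177 against 2377 in AC8, and less Mrc1, at 510 against 2007 and 688 against 1359. Retnla, a secreted protein of alternatively activated macrophages, was at 7307 CPM with and 842 without Ccr2 in wild type and at 1806 and 438 in AC8. Ccr2 and Timd4 were found together in 3 and 7 cells.

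Genes of other cell types were summed beside these values. In the chosen cells the summed fibroblast markers were at 337 CPM in wild type and 321 in AC8, B cell markers at 226 and 234, of which the heavy-chain gene Ighm made 191 and 220, and endothelial markers at 68.0 and 57.5. T cell markers were at 14.4 and 22.8 CPM, NK cell markers at 74.5 and 42.9, dendritic cell markers at 49.7 and 58.4, cardiomyocyte markers at 57.5 and 60.2 and red cell genes at 13.1 and 8.21. Neutrophil markers were at 163 CPM in wild type and 92.1 in AC8, and at 1003 and 22.8 in the 4-gene-negative cells, the 1003 coming from a minority of those cells. Mural markers were at 43.2 and 176 CPM, the AC8 value resting on 1 cell with 56 of the 96 Acta2 UMIs. Schwann markers were at 0 and 1.82 CPM. The fibroblast, endothelial, B cell, dendritic cell and cardiomyocyte sums were within 1.5-fold of each other in the 2 libraries, and the others were not. Ms4a1 (CD20), Ly6g of neutrophils, Alas2 of red cells and S100b of Schwann cells were at 0 in both libraries, as were 4 of 4 Schwann markers in wild type. The part of these cells in the gene differences above was not tested.

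Finally, the AC8 ratio in the chosen cells was set beside that in the 4-gene-negative cells, as a difference of log2 ratios. It was highest for S100a9 (5.32) and S100a8 (4.04), which had UMIs in 8 or fewer chosen cells per library. In the 4-gene-negative cells they were at 515 and 420 CPM in wild type, and at no UMI and 1.90 CPM in AC8. Those wild-type levels came from a minority of cells. Neutrophil markers, of which both are members, made 0% of a wild-type 4-gene-negative cell's UMIs at the upper quartile and 7.07% in the highest cell. Wwp1, a ubiquitin ligase, followed at 1.66, with 498 and 506 CPM in the chosen cells and 174 and 49.3 in the others, then Ccl12 at 1.56, the transporter Slco2b1 at 1.42 and the matrix protein gene Ccn1 at 1.41. It was lowest for S100a4 (-3.01), at 133 and 120 CPM in the chosen cells against 22.7 and 229, for fibronectin, Fn1 (-2.55), for Il1rn (-2.53, with 11.4 and 303 CPM in the 4-gene-negative cells), for Ccl5 (-2.14, in 3 and 4 chosen cells), for S100a10 (-1.88), at 785 and 712 against 167 and 582, and for Rwdd1 (-1.80). Lgals3 was likewise at 288 and 1362 CPM in the 4-gene-negative cells. Fn1, Il1rn and Lgals3 were thus higher in AC8 in both groups, and by more in the 4-gene-negative cells, while S100a4 and S100a10 were higher in AC8 in the 4-gene-negative cells but not in the chosen cells. None of these differences was tested.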

How the data were processed

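The authors aligned and demultiplexed reads with Cell Ranger, per the series' design text, on mm10, per the submitters' processing notes; no version is stated. The deposited matrices hold UMI counts per gene and cell, with 5800 wild-type and 4867 AC8 cells, 9664932 and 11076564 UMIs, and no cell under 500 UMIs. Cells under 1000 UMIs or 500 genes (2066 and 1126) and then cells over 10% mitochondrially encoded UMIs (15 and 18) were left out, which kept 3719 and 3723. The cells and the gene lists were chosen with earlier results of these data known.

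Counts were summed per library over the chosen cells and divided by their total (CPM). Ratios are log2(CPM + 10), genes in counts needed 30 UMIs, and "1.5-fold" refers to that ratio, whereas ratios printed with an interval are of CPM without a pseudocount and have exact conditional 95% intervals. Shares have exact Clopper-Pearson intervals. A share after thinning used 1000 UMIs drawn per cell. Genes named between genotypes had at least 50 UMIs, at least 100 CPM and UMIs in 10 cells of the higher library, and at least the level of all other kept cells there, and were the 12 highest and 12 lowest. The 8 highest and 8 lowest were named against the 4-gene-negative cells and 6 each way for the difference of ratios; genes of the rule and mitochondrial, ribosomal, hemoglobin, sex-linked, antigen receptor and unnamed genes were not eligible. List members were named where their ratios were largest or at least 2-fold or their levels high. The split by depth was added after seeing the data. Doublets were scored from simulated pairs on 30 components and 30 neighbours, at 0.8% per 1000 deposited cells, and were not removed. Gene positions are from GENCODE on GRCm38. Counting was checked on simulated data. Tools were scikit-learn 1.9.0, pandas 2.3.3, matplotlib 3.10.9, scipy 1.17.1 and numpy 2.4.6 under Python 3.11.15.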

Additional observations from a re-analysis of the deposited data

Results flagged for a closer look

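Among the genes named for their ratios and the members of the main gene lists, 5 had AC8 to wild-type ratios whose 95% counting intervals lay on opposite sides of 1 in the chosen cells and in the 4-gene-negative C1q cells. The difference was not tested, and other genes with ratios on opposite sides had at least 1 interval that included 1 or no UMI in a group. On the log2 scale the ratio in the chosen cells minus that in the other cells was 1.38 for Maf, 0.78 for Fcgrt and 0.64 for Selenop, which were higher in AC8 in the chosen cells and lower in the 4-gene-negative cells. It was -2.21 for Il1a and -1.35 for Cxcl1, which ran the other way. Maf, a transcription factor of resident macrophages, was at 548 and 691 CPM in the chosen cells and 250 and 116 in the others. Cxcl1, a neutrophil chemokine, was at 221 and 156 CPM in the chosen cells and 136 and 258 in the others.

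Cells too shallow for the rule also held members. Among cells under 1000 UMIs or 500 genes, 16 in wild type and 10 in AC8 met the other limits. They carried Cd163 at 744 and 510 CPM, Mrc1 at 1414 and 2549 CPM and H2-Aa at 3870 and 4078 CPM over 13436 and 7847 UMIs, where 3 UMIs are 223 and 382 CPM.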

How the results depend on the processing

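None of the alternatives turned the direction of a main value, and the cause of the moves was not tested. Of 174 main values 139 were counted as unmoved, some after wide shifts. Genes lower in AC8 went from 383 to 567 in cells of at least 2000 UMIs and 1000 genes and 572 with at least 1 UMI per gene. Genes higher than in 4-gene-negative cells went from 716 to 1051 with a pseudocount of 1 CPM and 487 with cells thinned. The interferon median went from 0.26 to 0.079 with cells thinned. The other 35 values follow. The wild-type share was 73.1% with cells of at least 2000 UMIs and 1000 genes, 70.7% and 46.3% with at least 1 and 4 UMIs of the 4 genes, and 49.7% with the rule applied after thinning; the AC8 share was 56.5%, 41.8% and 42.1% under the last 3. The difference was -21.2 points with the deeper cells and -4.59 with at least 4 UMIs. Genes higher and lower in AC8 numbered 558 and 616 with a pseudocount of 1 CPM, 47 and 72 with 50, 112 and 157 with at least 100 UMIs, and 545 were higher with at least 1 UMI. Genes higher and lower than in 4-gene-negative cells numbered 229 and 73 with a pseudocount of 50, 455 and 101 with at least 100 UMIs and 408 and 318 when centred on the median gene. The MHC class II median between genotypes was -0.057 in the deeper cells. Against 4-gene-negative cells it was -1.72 (deeper cells), -1.01 and -1.65 (1 and 4 UMIs), -1.15 (1 UMI per gene), -1.14 (cells weighted equally), -1.17 (thinned) and -1.53 (centred) in wild type, and -1.43 and -1.99 (1 and 4 UMIs), -1.57 (equal weights), -1.58 (thinned) and -1.85 (centred) in AC8. The 24 genes named between genotypes were chosen for the most extreme ratios in these cells, and the alternatives mostly re-use the same UMIs. That they kept their sign under all 13 alternatives is thus no support for the differences. Their log2 ratios moved over 1.5-fold for Atp1b1 (4.51 and 1.58 with pseudocounts of 1 and 50 CPM), Ccnb1ip1 (1.33 with 50) and Nup98 (-0.73 thinned). The medians of the chemokine, cell cycle, complement, efferocytosis, growth factor, iron and monocyte lists between genotypes, all near 0, changed sign under at least 1 alternative. No paired analysis was possible because each genotype has 1 library. Depth limits genes seen in few cells, such as Atp1b1 in wild type.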
